A study of Rattus norvegicus with 72 samples.

Results

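The liver makes most of the proteins that clot blood and most of those that form the complement system, and 38 of their genes were followed here through the first day of regrowth after partial hepatectomy (PHx) in rats fed ethanol or a control diet. The 38 genes were taken as a list, and 34 of them could be measured on their own, out of 14506 genes with a probe set annotated to 1 gene. They comprise 9 coagulation factors (F2, F5, F7, F10, F11, F12, F13b, Klkb1 and Kng1), 9 inhibitors of coagulation and proteins of fibrinolysis (Serpinc1, Serpind1, Serping1, Serpinf2, Proc, Pros1, Plg, Cpb2 and Hrg) and 16 complement genes (C1r, C1s, C3, C4bpa, C4bpb, C6, C8a, C8b, C8g, C9, Cfd, Cfi, Masp1, Masp2, Mbl1 and Mbl2). F9 and C5 have no probe set annotated to them alone in the table used, and C2 and Cfb share a probe set that names both, so these 4 are given no values.

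Liver RNA from 36 animals was hybridized to 72 Affymetrix arrays (Rat Gene 1.0 ST). The animals ate 1 of 3 diets: chronic ethanol (EtOH), a high fat control diet (HF) and a carbohydrate control diet that was pair-fed (CHO). Each animal gave a control liver, taken at PHx, and the regrowing remnant of the same liver 1, 6 or 24 h later, so the control livers of every group carry the diet but not the operation. Animals with an array that the submitters marked as an outlier were left out, which left 27 animals with both arrays, namely 4 EtOH, 3 HF and 3 CHO animals at 1 h, 4, 2 and 3 at 6 h, and 3, 3 and 2 at 24 h. Diets before surgery were compared on 29 control livers (12 EtOH, 9 HF and 8 CHO). There were no sham-operated animals, so the operation and anaesthesia cannot be told apart from the loss of liver mass. Remnants at 1 and 6 h were also taken at another hour of the day than their controls, which cannot be told apart either. The sources used here do not give the strain, age or sex of the rats, nor what the diets held and how long they were fed. The titles and diet tags were used for the groups, but the source names give HF and CHO the other way round, so any statement that separates HF from CHO rests on the titles.

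Coagulation runs as a cascade of serine proteases: the contact proteins factor XII, prekallikrein and kininogen and the tissue factor pathway through factor VII both lead to factor X and thrombin, while antithrombin, heparin cofactor II and the protein C system hold the cascade back and plasmin dissolves the clot. Complement is a second protease cascade of plasma, started by C1r and C1s on antibody, by the mannose-binding lectins with their MASP proteases, or by factors B and D, and ended by the pore of C5 to C9. Hepatocytes secrete nearly all of these proteins, and in the acute-phase response to injury some of their mRNAs rise while others fall.

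All values are log2 signals after RMA (robust multi-array average) and the authors' batch correction. A change is the level in the remnant minus that in the same animal's control liver, and a response is the mean change with the 3 diets weighted equally. A gene was called where limma gave an adjusted p under 0.05, with the Benjamini-Hochberg method applied across the 14506 genes. The mean levels of all 34 genes lay above the median of every array (4.54 to 4.77). The summed level of 10 hepatocyte markers had medians of 15.95, 15.95 and 15.97 in the paired controls of the 1, 6 and 24 h cohorts and of 16.02, 15.99 and 15.87 in the remnants. Of these markers 1, 4 and 1 were called higher and 0, 3 and 4 lower, with Cyp2e1 at -0.82, Ttr at -0.42, Ass1 at -0.34, Apoa1 at -0.18 and Hpx at 0.41 at 24 h and Alb not called at any time. The summed level of 11 macrophage markers had medians of 11.3, 11.2 and 11.3 in the paired controls of the 1, 6 and 24 h cohorts and of 11.6, 11.4 and 11.3 in the remnants, with 6, 3 and 3 markers called higher and 0, 1 and 4 lower. Of 8 stellate cell markers 0, 0 and 1 were higher (Pdgfrb at 24 h) and 0, 5 and 4 lower, and their summed median went from 9.92 in both sets of paired controls to 9.49 in remnants at 6 h and 9.44 at 24 h. Of 5 endothelial markers 1, 3 and 0 were higher and 0, 0 and 2 lower, and their summed median went from 9.80 to 10.09 at 1 h, from 9.77 to 9.94 at 6 h and from 9.79 to 9.34 at 24 h, when Kdr changed by -1.16. The neutrophil, lymphocyte, adipocyte and cholangiocyte lists had summed medians of 6.07 to 6.69 in all groups. In whole liver, fewer hepatocytes and less RNA per hepatocyte cannot be told apart, and the part of other cell types in the results below was not tested.

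At 1 h few genes of the list were called. Mbl1 and F13b were called lower and 0 genes higher, 2 of 34, where 10.3% of all genes were called (4.47% higher and 5.83% lower). The median change of the 34 genes was -0.06, against -0.01 over all genes. Of the 34 genes, 28 lay below 0 and 10 had an unadjusted p under 0.05 (limma). Mbl1, which encodes the rodent mannose-binding lectin A, had levels of 8.99, 9.25 and 9.35 (lowest, median and highest) in the 10 control livers and 8.63, 8.93 and 9.43 in the remnants. Its values overlapped, and it fell in 9 of 10 animals (log2 change -0.26 ± 0.08 SE, adjusted p = 0.0342, limma). F13b, the carrier subunit of the clot-crosslinking factor XIII, ran from 10.39 through 10.51 to 10.65 in control livers and from 10.16 through 10.39 to 10.56 in remnants. It fell in all 10 animals, by 0.00 to 0.37 (-0.18 ± 0.05, adjusted p = 0.0268, limma). The Mbl1 call was lost without any of 9 of the 10 animals, the exception being EtOH replicate 2, and the F13b call without EtOH replicate 2, HF replicate 1 or 4 or CHO replicate 2 or 4. Neither gene was called within scan day 7 or scan day 8 alone, and leaving out 1 animal at a time gave 0 to 3 calls.

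At 6 h the picture had changed, and most of the list was lower in the remnant. Of the 34 genes 24 were called lower and 3 higher, where 39.9% of all genes were called, 19.9% lower and 20% higher. The median change was -0.29, against 0.00 over all genes. In each class the falls outnumbered the rises: 7 lower and 1 higher of 9 coagulation factors, 7 and 0 of 9 inhibitors and fibrinolytic genes, and 10 and 2 of 16 complement genes. Of the 24 genes called lower, 22 fell in all 9 animals, the exceptions being F7 (8 of 9) and C6 (7 of 9). For 19 genes the remnants and the control livers did not overlap at all, which held for 16.4% of all genes.

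**Figure D1:**
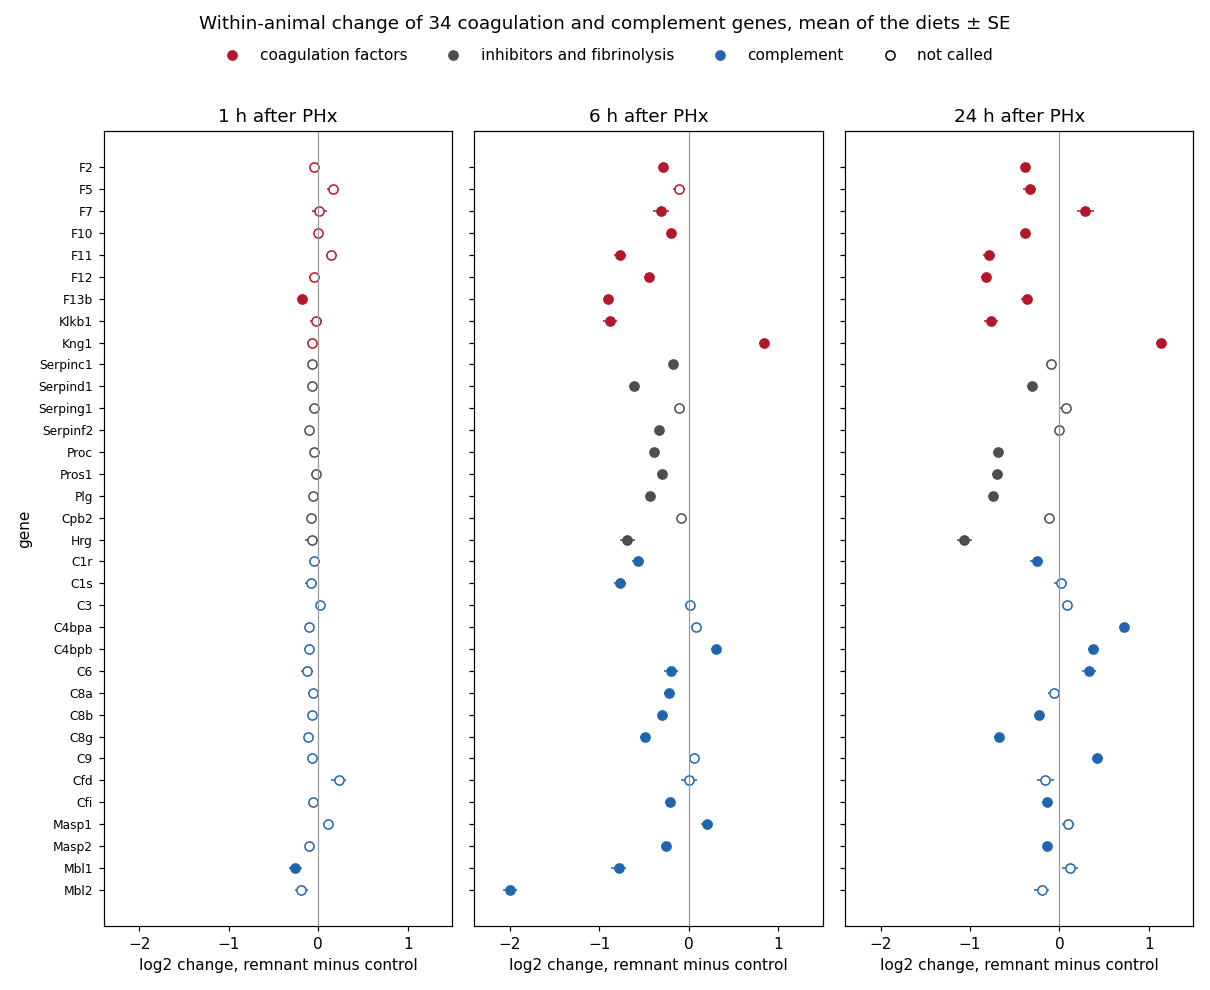
Response of each of the 34 genes at 1, 6 and 24 h after PHx as the log2 change from the animal's own control liver (mean of the 3 diets, bars ± SE, 10, 9 and 8 animals), with filled points for genes called by limma and open points for the others. The points lie near 0 at 1 h and mostly to the left of 0 at 6 h, with Mbl2 at -2.00 and Kng1 at 0.84, and at 24 h the complement genes are spread to both sides.

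Mbl2, which encodes the other mannose-binding lectin of rodents, changed most. Its levels were 10.76, 10.95 and 11.06 (lowest, median and highest) in control livers and 8.66, 8.90 and 9.15 in remnants. The changes were -1.83, -2.30, -1.93 and -2.02 in the 4 EtOH animals, -1.97 and -1.66 in the HF animals and -2.35, -2.17 and -1.99 in the CHO animals. Every remnant lay more than a log2 unit below every control liver. The EtOH animals overlapped with both other diets, while both HF animals changed less than the 3 CHO animals; HF minus CHO in the response was not called (0.36 ± 0.21, adjusted p = 0.987, limma). The mean was -2.00 ± 0.08, a 4.00-fold fall (adjusted p = 1.41e-16, limma).

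Of the other starters of complement 4 were called lower and 1 higher. Mbl1 fell by 0.79 ± 0.08 in the mean, C1s by 0.77 ± 0.07 and C1r by 0.57 ± 0.07, with no overlap between remnants and control livers for any of the 3. C1r and C1s encode the proteases of the C1 complex and are neighbours on chromosome 4. Masp2, the protease that cleaves C4 and C2 on the lectins, fell by 0.26 ± 0.05 in 9 of 9 animals. Masp1, its partner protease, went the other way: control livers had 8.99, 9.17 and 9.32 and remnants 9.17, 9.43 and 9.55. The groups overlapped, and Masp1 rose in 8 of 9 animals (0.21 ± 0.07, adjusted p = 0.0118, limma), but the call was lost without HF replicate 3 (or CHO replicate 4) of the 6 h cohort and within either scan day.

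Among the late complement genes 4 of 5 were called lower. C8g, C8b and C8a, the chains of the component that inserts the pore into membranes, fell by 0.49 ± 0.06, 0.30 ± 0.05 and 0.22 ± 0.06. C6 fell by 0.20 ± 0.08 (adjusted p = 0.0357, limma), a call lost within scan day 2 and without EtOH replicate 2 or 4, HF replicate 3 or CHO replicate 2 or 3 of the 6 h cohort. C9 stood at 0.06 ± 0.06 (adjusted p = 0.506) and C3, on which all routes of complement meet, at 0.01 ± 0.05 (adjusted p = 0.926). Cfd, the factor D protease of the alternative route, stood at 0.00 ± 0.09 (adjusted p = 0.999). Its signal was the dimmest of the list, with a mean level of 5.56 over all arrays, near the array medians of 4.54 to 4.77. The next lowest, F7, had 8.05. Among the regulators Cfi, the protease that degrades C3b and C4b, fell by 0.21 ± 0.05. C4bpb, a chain of the C4b-binding protein, ran from 11.19 through 11.41 to 11.53 in control livers and from 11.58 through 11.70 to 11.75 in remnants. It rose without overlap in all 9 animals (0.30 ± 0.06, adjusted p = 7.13e-05, limma), while its partner chain C4bpa stood at 0.07 ± 0.05 (adjusted p = 0.326).

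Among the coagulation factors F13b and Klkb1 fell furthest. Klkb1, which encodes prekallikrein, had levels of 10.23, 10.53 and 10.87 in control livers and 9.21, 9.71 and 10.07 in remnants, with no overlap (-0.88 ± 0.08, adjusted p = 3.72e-10, limma). F11, its neighbour on chromosome 16 and its closest relative in the cascade, fell by 0.77 ± 0.07, and F12, the protease that starts contact activation, by 0.45 ± 0.05. F13b had 10.28, 10.50 and 10.74 in control livers and 9.45, 9.65 and 9.74 in remnants. It fell in all 9 animals without overlap (-0.90 ± 0.06, 1.87-fold, adjusted p = 7.18e-13, limma). Smaller falls were called for F7 (-0.31 ± 0.09), F2, which encodes prothrombin (-0.28 ± 0.05), and F10 (-0.20 ± 0.05). The F7 call was lost without HF replicate 3 of the 6 h cohort and within scan day 2. F5, the cofactor of factor X, stood at -0.11 ± 0.07 and was not called (adjusted p = 0.244).

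Kng1, which encodes the carrier of prekallikrein and precursor of bradykinin, rose. Control livers had 11.40, 11.66 and 12.02 and remnants 12.37, 12.52 and 12.59. The changes were 0.82, 0.54, 0.55 and 0.76 in EtOH animals, 0.71 and 1.06 in HF animals and 0.94, 0.92 and 1.01 in CHO animals. Every remnant was above every control liver (0.84 ± 0.05, 1.79-fold, adjusted p = 1.05e-12, limma). Rats carry several closely related kininogen genes, some of them known as acute-phase genes, and probes may share signal between them. In a fit over probe sets, a second Kng1 probe set rose by 1.57, and the probe sets of Kng2 and Kng2l1 by 0.63 and 0.47.

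Of the inhibitors Serpind1, heparin cofactor II, fell by 0.62 ± 0.05 and Serpinc1, antithrombin, by 0.18 ± 0.05. Proc and Pros1, which encode protein C and its cofactor protein S, fell by 0.39 ± 0.05 and 0.30 ± 0.06. Plg, the precursor of plasmin, fell by 0.43 ± 0.05 and Serpinf2, the antiplasmin that inhibits it, by 0.33 ± 0.05. Hrg, a glycoprotein that binds heparin and plasminogen, fell by 0.69 ± 0.08. Serping1, the inhibitor of C1 and of the contact proteases, and Cpb2, which slows fibrinolysis, stood at -0.10 ± 0.06 and -0.09 ± 0.05 and were not called (adjusted p = 0.168 and 0.201). Of the 34 genes, 21 were called within scan day 2 (5 animals) and 17 within scan day 1 (3 animals), where 31.6% and 26.4% of all genes were called.

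The promoters of the 4 printed genes are shown because these genes changed most at any time among those with a RefSeq entry. RefSeq promoters were found for 26 of the 34 genes, and the 250 bases before the annotated start (build GRCr8) were searched on both strands for the letters of motifs of liver and acute-phase factors. Capitals mark each match. Mbl2 lies at chr1:237430793-237431042 (plus strand), Kng1 at chr11:91340149-91340398 (minus strand), F13b at chr13:53681389-53681638 (plus strand) and Klkb1 at chr16:53690976-53691225 (plus strand), each printed 5′ to 3′ towards its gene.
Mbl2: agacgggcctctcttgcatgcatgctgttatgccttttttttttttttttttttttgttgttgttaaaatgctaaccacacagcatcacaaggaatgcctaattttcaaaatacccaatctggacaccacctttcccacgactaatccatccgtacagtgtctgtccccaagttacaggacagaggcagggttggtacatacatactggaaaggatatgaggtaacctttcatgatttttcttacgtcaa
Kng1: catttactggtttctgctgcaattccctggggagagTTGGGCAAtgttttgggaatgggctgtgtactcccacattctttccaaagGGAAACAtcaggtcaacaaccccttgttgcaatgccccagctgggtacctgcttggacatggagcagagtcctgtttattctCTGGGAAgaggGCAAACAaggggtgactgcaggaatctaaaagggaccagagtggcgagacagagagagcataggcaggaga
F13b: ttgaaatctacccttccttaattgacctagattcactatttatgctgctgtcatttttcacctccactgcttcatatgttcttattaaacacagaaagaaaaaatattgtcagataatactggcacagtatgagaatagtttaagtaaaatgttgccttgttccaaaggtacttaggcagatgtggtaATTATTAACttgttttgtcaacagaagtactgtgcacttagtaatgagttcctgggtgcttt
Klkb1: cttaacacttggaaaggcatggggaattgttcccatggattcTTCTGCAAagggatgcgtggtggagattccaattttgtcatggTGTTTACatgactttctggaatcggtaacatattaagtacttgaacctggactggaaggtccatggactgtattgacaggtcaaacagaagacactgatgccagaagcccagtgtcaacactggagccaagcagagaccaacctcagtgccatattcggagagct
F13b holds the HNF1 letters (GTTAATNAT, here as the reverse complement ATNATTAAC) at positions -62 to -54 from the start. Kng1 holds 1 match to C/EBP (TTGCNNAA), 2 to FOXA (TGTTTNC) and 1 to the IL-6 type 2 element (CTGGGAA), and Klkb1 holds 1 to C/EBP and 1 to FOXA. In Mbl2 none of these letters, nor those of HNF4 (CAAAGTNCA) or STAT (TTCNNNGAA), were found in this window. Over the 26 promoters C/EBP letters stood in 9 (34.6%, against 9.22% of 33469 RefSeq promoters of the same length), FOXA letters in 11 (42.3% against 18.3%) and HNF1 letters in 3 (11.5% against 0.666%). IL-6 type 2 letters stood in 6 (23.1% against 9.56%), STAT letters in 3 (11.5% against 7.67%) and HNF4 letters in 0 (against 1.06%). In the 19 promoters whose genes fell at 6 h, FOXA letters stood in 8, C/EBP in 6, IL-6 type 2 in 3, HNF1 in 2, STAT in 2 and HNF4 in 0. These 19 are part of the 26, and whether they differ from the rest was not tested. A match of letters shows neither binding nor a part in the changes.

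At 24 h the list had split. Of the 34 genes 17 were called lower and 6 higher, where 34.1% of all genes were called (17.4% lower and 16.6% higher), and the median change was -0.15, against -0.03 over all genes. All 9 coagulation factors were called, 7 lower and 2 higher. Of the 9 inhibitors and fibrinolytic genes 5 were lower and 0 higher, and of the 16 complement genes 5 were lower and 4 higher. Remnants and control livers did not overlap for 14 genes, which held for 6.77% of all genes.

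Hrg showed the largest fall. Its levels were 11.05, 11.25 and 11.53 in control livers and 9.69, 10.18 and 10.55 in remnants. The changes were -1.09, -1.22 and -0.50 in EtOH animals, -1.39, -1.60 and -0.89 in HF animals and -1.001 and -0.92 in CHO animals. No remnant reached a control liver, and the animals of each diet overlapped with the others (-1.06 ± 0.09, 2.09-fold, adjusted p = 2.02e-10, limma). F12 followed, with 10.65, 10.84 and 10.99 in control livers and 9.89, 10.00 and 10.27 in remnants (-0.82 ± 0.05, adjusted p = 2.23e-12). F11 had 8.67, 8.92 and 9.24 in control livers and 7.95, 8.15 and 8.65 in remnants (-0.79 ± 0.07, adjusted p = 1.28e-09). Both fell in all 8 animals without overlap.

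The other anticoagulant and fibrinolytic genes that stayed low were Plg (-0.74 ± 0.05), Pros1 (-0.69 ± 0.06), Proc (-0.68 ± 0.05) and Serpind1 (-0.31 ± 0.05). Klkb1 stood at -0.77 ± 0.08, with 7 of 8 animals lower and 1 EtOH animal at 0.01. F10 (-0.39 ± 0.05), F2 (-0.38 ± 0.05), F13b (-0.36 ± 0.06) and F5 (-0.33 ± 0.07) were lower by less. Serpinc1, Serpinf2, Serping1 and Cpb2 were not called, with changes of -0.10, 0.00, 0.07 and -0.12 (adjusted p of 0.0823 to 0.987).

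Kng1 rose further, to 12.70, 12.86 and 13.00 in remnants against 11.49, 11.74 and 11.96 in control livers (1.14 ± 0.06, 2.20-fold, adjusted p = 7.75e-15, limma). Its second probe set rose by 2.14, and the Kng2 and Kng2l1 probe sets by 0.92 and 0.52. F7, which encodes the factor that tissue factor binds, had turned from lower to higher (0.29 ± 0.09, 7 of 8 animals, adjusted p = 0.0176), but the call was lost without EtOH replicate 3, HF replicate 1 or CHO replicate 4 of the 24 h cohort, within scan days 4 and 6 and with renewed quantile normalization. F7 and F10, which moved in opposite directions, are neighbours on chromosome 16.

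The complement genes called higher were C4bpa, C9, C4bpb and C6. C4bpa had 11.60, 11.77 and 11.88 in control livers and 12.41, 12.45 and 12.59 in remnants, with no overlap (0.72 ± 0.06, 1.65-fold, adjusted p = 8.54e-11, limma). C9, the component that forms the bulk of the pore, had 11.59, 11.89 and 12.02 in control livers and 12.16, 12.27 and 12.53 in remnants, again with no overlap (0.43 ± 0.06, adjusted p = 2.04e-06). C4bpb rose by 0.38 ± 0.06 and C6 by 0.33 ± 0.08. C8g (-0.68 ± 0.06), C1r (-0.26 ± 0.07), C8b (-0.23 ± 0.05), Cfi (-0.14 ± 0.05) and Masp2 (-0.14 ± 0.05) were lower. The calls of Cfi and Masp2, with adjusted p of 0.0437 and 0.0467, were lost in 14 and 26 of 36 alternatives each, and that of C1r without CHO replicate 2 of the 24 h cohort. Mbl2 (-0.20 ± 0.08, adjusted p = 0.0723), Mbl1 (0.12 ± 0.09), C1s (0.02 ± 0.07), C8a (-0.06 ± 0.06), Masp1 (0.10 ± 0.07), C3 (0.08 ± 0.05) and Cfd (-0.16 ± 0.10) were not called. Within scan days 4 (5 animals) and 6 (2 animals), 13 and 11 of the 34 genes were called, where 14.8% and 15.4% of all genes were.

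**Figure D2:**
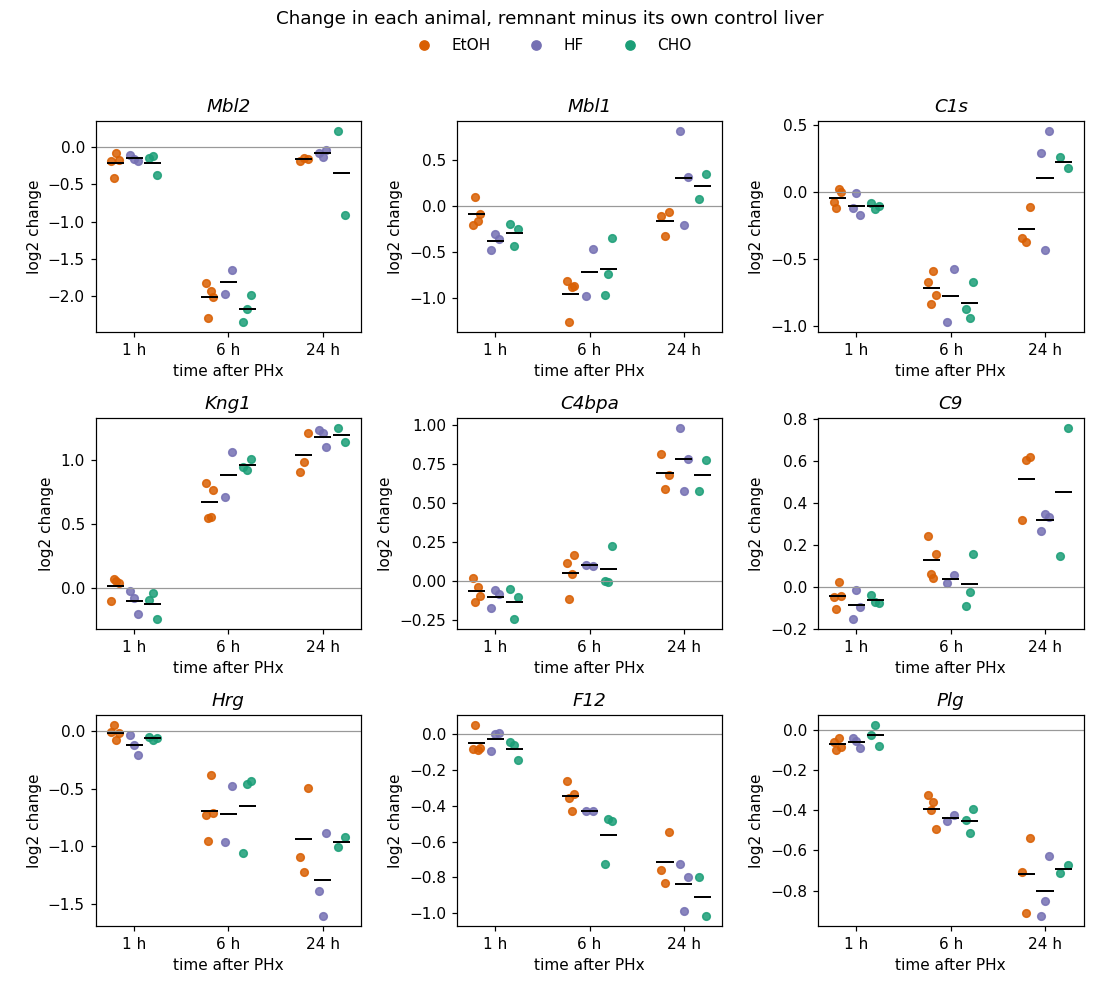
Log2 change in each animal for 9 genes at 1, 6 and 24 h, coloured by diet, with a line at the mean of each diet. Over all animals the means of Mbl2, Mbl1 and C1s (top row) were low at 6 h and near 0 at 24 h. Single animals at 24 h ran from -0.91 to 0.22 for Mbl2, from -0.33 to 0.81 for Mbl1 and from -0.43 to 0.46 for C1s. The means of Kng1, C4bpa and C9 (middle row) were highest at 24 h, and those of Hrg, F12 and Plg (bottom row) were lowest at 24 h.

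The responses at different times come from different animals, arrayed on different scan days, so time and cohort cannot be told apart. Between 1 and 6 h the response differed for 22 genes, 20 of them lower and 2 higher at 6 h, where 32.7% of all genes were called. Between 6 and 24 h it differed for 18 genes, 12 higher and 6 lower at 24 h, where 29% of all genes were called. Of the complement genes 7 were higher at 24 h than at 6 h and 0 lower, namely Mbl2 (1.81 ± 0.12), Mbl1 (0.90 ± 0.12), C1s (0.79 ± 0.10), C4bpa (0.64 ± 0.08), C6 (0.53 ± 0.11), C9 (0.37 ± 0.08) and C1r (0.31 ± 0.09). Of the inhibitors and fibrinolytic genes 4 were lower, namely Pros1 (-0.39 ± 0.08), Hrg (-0.37 ± 0.12), Plg (-0.31 ± 0.07) and Proc (-0.30 ± 0.08), and Serpinf2 and Serpind1 were higher (0.33 ± 0.07 and 0.31 ± 0.07). Of the coagulation factors F7, F13b and Kng1 were higher (0.60 ± 0.13, 0.54 ± 0.08 and 0.30 ± 0.08) and F12 and F10 lower (-0.37 ± 0.07 and -0.19 ± 0.07). The F10 call was lost without any of 8 single animals, and the Hrg call without HF replicate 4 of the 6 h cohort or CHO replicate 2 of the 24 h cohort, and the C1r call without CHO replicate 4 of the 24 h cohort. Of the genes lower at 6 h, 16 were also called lower at 24 h, 6 were no longer called (C1s, C8a, Mbl1, Mbl2, Serpinc1 and Serpinf2) and C6 and F7 were called higher. Of all genes lower at 6 h, 53.5% were lower, 37.0% not called and 9.47% higher at 24 h. C3, Cfd, Cpb2 and Serping1 were called at neither time. Whether the classes differ from one another was not tested.

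**Figure D3:**
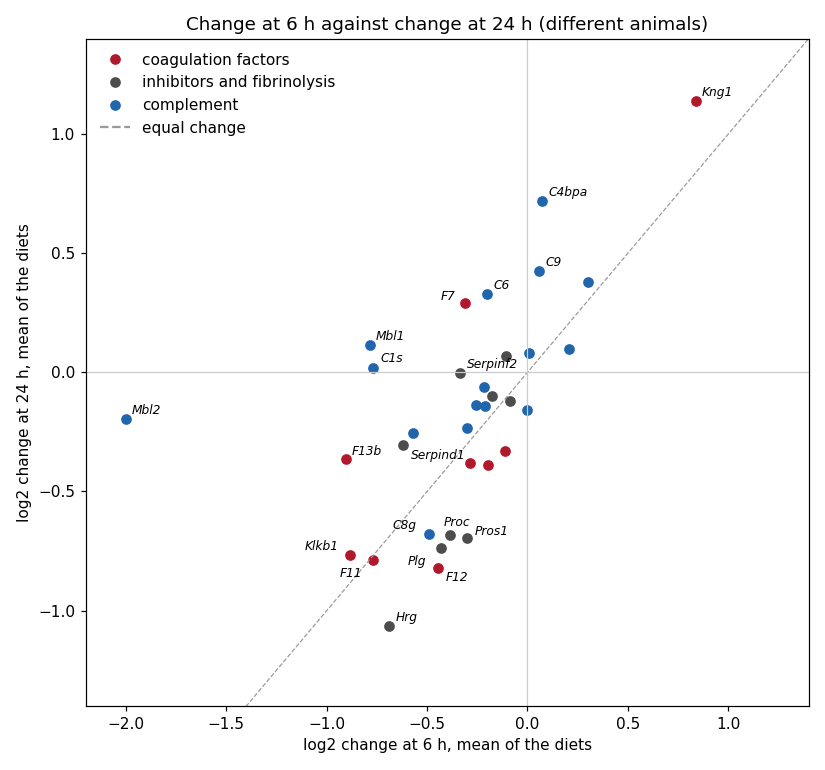
Mean log2 change at 6 h (x axis) against that at 24 h (y axis) for the 34 genes, coloured by class, with the line of equal change dashed; the 2 times come from different animals. Kng1 is high on both axes, Mbl2 is at -2.00 on the x axis and -0.20 on the y axis, and Hrg, F12, Plg, Proc and Pros1 lie below the line.

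The same responses were read in each diet. At 6 h, 25 genes were called in EtOH animals (2 higher, 23 lower), 16 in HF animals (2 and 14) and 21 in CHO animals (1 and 20), where 34.3%, 19.3% and 29.2% of all genes were called; HF had 2 animals. At 24 h the counts were 15, 21 and 16, where 14.2%, 24.9% and 16.7% of all genes were called. At 1 h no gene of the list was called in any single diet, with 2, 2 and 1 at an unadjusted p under 0.05 in EtOH, HF and CHO, where 2.94%, 2.12% and 1.85% of all genes were called. In all 3 diets the same direction was called for 15 genes at 6 h and for 14 at 24 h, which held for 15.7% and 7.26% of all genes. In 9 genes it was called at both times, which held for 3.77% of all genes: F11, F12, F13b, Hrg, Klkb1, Kng1, Plg, Proc and Serpind1.

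The difference between EtOH and the control diets in the response was then tested. At 1 h limma called 0 of the 34 genes (0 at an unadjusted p under 0.05), where 0% of all genes were called. At 6 h it called 0 genes (3 at an unadjusted p under 0.05), where 3.46% of all genes were called. The smallest p at 6 h was that of C6 (-0.47 ± 0.15, adjusted p = 0.0835), with a mean change of -0.51 in EtOH, 0.09 in HF and -0.18 in CHO animals. F7 came next among the genes (-0.50 ± 0.18, adjusted p = 0.13), with -0.65, 0.02 and -0.30. At 24 h the difference was called for F11 and C6, 2 of 34, where 6.29% of all genes were called.

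F11 fell less in EtOH animals. Its changes at 24 h were -0.34, -0.81 and -0.12 in EtOH, -0.83, -1.06 and -0.66 in HF and -1.06 and -1.10 in CHO animals. The EtOH animals overlapped with the HF animals but not with the CHO animals. EtOH minus the mean of the control diets was 0.54 ± 0.15 (adjusted p = 0.0238, limma), EtOH minus CHO 0.66 ± 0.18 (adjusted p = 0.0464, a comparison that called 2.94% of all genes) and EtOH minus HF 0.42 ± 0.16, which was not called (adjusted p = 0.151). The mean levels behind these changes were 8.83 before and 8.40 after in EtOH, 8.91 and 8.06 in HF and 9.20 and 8.11 in CHO. A change subtracts the control level, so these differences share control livers with the comparisons before surgery given below.

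C6, a component of the pore, rose at 24 h in HF animals (mean change 0.69, called), while the means in CHO and EtOH animals, 0.40 and -0.11, were not called. Its changes were -0.11, 0.08 and -0.29 in EtOH, 0.56, 0.72 and 0.81 in HF and 0.63 and 0.18 in CHO animals, so that every control-diet animal lay above every EtOH animal. EtOH minus the control diets was -0.66 ± 0.16 (adjusted p = 0.0116, limma), EtOH minus HF -0.80 ± 0.18 (adjusted p = 0.00718, a comparison that called 5% of all genes) and EtOH minus CHO -0.51 ± 0.20, which was not called (adjusted p = 0.193). The mean levels were 9.99 before and 9.88 after in EtOH, 9.39 and 10.09 in HF and 10.01 and 10.41 in CHO. Both calls against the control diets were lost without EtOH replicate 1, EtOH replicate 3 or CHO replicate 2 of the 24 h cohort, and that of F11 also without CHO replicate 4. HF minus CHO was called for 0 genes of the list at any time (0, 1 and 0 at an unadjusted p under 0.05 at 1, 6 and 24 h), where 0% of all genes were called.

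**Figure D4:**
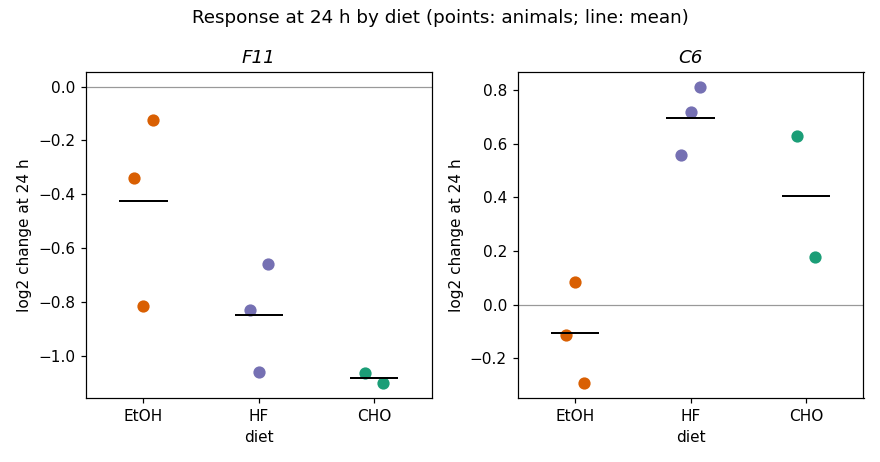
Log2 change of F11 and C6 at 24 h after PHx in each animal by diet, with a line at the mean. For F11 the EtOH animals lie at -0.81 to -0.12 and the CHO animals at -1.10 and -1.06, and for C6 the EtOH animals lie at -0.29 to 0.08, below all HF and CHO animals.

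Before surgery the diets differed for a few genes of the list. EtOH livers had lower Klkb1, F11 and F5 and higher Kng1 and Mbl1 than CHO livers, 5 of 34, where 11.8% of all genes were called. Against HF livers they had lower Klkb1 and higher Mbl1, Kng1 and C6, 4 of 34, where 13.5% were called. HF and CHO livers differed for 0 genes by limma (4 at an unadjusted p under 0.05), where 0.165% were called. Both EtOH comparisons share the EtOH livers. None of the inhibitors or fibrinolytic genes was called in any of the 3 comparisons.

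Klkb1 had levels of 10.12, 10.38 and 10.56 (lowest, median and highest) in 12 EtOH livers, 10.46, 10.82 and 11.05 in 9 HF livers and 10.45, 10.72 and 10.92 in 8 CHO livers. The EtOH median lay below every liver of either control diet, although the ranges overlapped (EtOH minus HF -0.39 ± 0.07, adjusted p = 0.000531; EtOH minus CHO -0.34 ± 0.08, adjusted p = 0.0056, limma). Its neighbour F11 had 8.59, 8.80 and 9.09 in EtOH, 8.55, 8.92 and 9.14 in HF and 8.92, 9.20 and 9.65 in CHO livers. EtOH was lower than CHO (-0.42 ± 0.10, adjusted p = 0.00722), while HF minus CHO was -0.30 ± 0.11 (adjusted p = 0.431). F5 ran from 8.62 through 8.92 to 9.09 in EtOH, from 8.91 through 9.11 to 9.30 in HF and from 8.92 through 9.27 to 9.35 in CHO livers. It was lower in EtOH than in CHO (-0.30 ± 0.08, adjusted p = 0.00849), while EtOH minus HF was -0.20 ± 0.07 (adjusted p = 0.0587).

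Kng1 went the other way from Klkb1. Its levels were 11.65, 11.89 and 12.02 in EtOH, 11.40, 11.69 and 11.81 in HF and 11.45, 11.57 and 11.71 in CHO livers, with overlap (EtOH minus CHO 0.31 ± 0.07, adjusted p = 0.00355; EtOH minus HF 0.20 ± 0.06, adjusted p = 0.0306, limma). The call against HF was lost in 13 of 41 alternatives. In the fit over probe sets, the second Kng1 probe set stood at 0.44 against CHO and at 0.24 against HF, the latter not called. Kng2 stood at 0.28 and 0.26, both called, and Kng2l1 at 0.13 and 0.18, neither called. Which kininogen gene gives the signal was not tested. Mbl1 had 9.24, 9.35 and 9.62 in EtOH, 8.60, 9.14 and 9.29 in HF and 8.89, 9.03 and 9.25 in CHO livers. Only the edges of the ranges overlapped (EtOH minus HF 0.29 ± 0.08, adjusted p = 0.0093; EtOH minus CHO 0.29 ± 0.08, adjusted p = 0.0246), and the call against CHO was lost in 10 of 41 alternatives. C6 had 9.50, 10.01 and 10.34 in EtOH, 9.13, 9.54 and 10.00 in HF and 9.53, 9.93 and 10.18 in CHO livers. Its difference between EtOH and HF (0.35 ± 0.12, adjusted p = 0.0497) was lost in 23 of 41 alternatives.

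Among the genes next in order, Cfi had 11.20, 11.32 and 11.44 in EtOH, 11.18, 11.44 and 11.58 in HF and 11.39, 11.49 and 11.64 in CHO livers, and EtOH minus CHO was not called (-0.17 ± 0.06, adjusted p = 0.0745). Hrg had 11.05, 11.28 and 11.55 in EtOH, 10.86, 11.15 and 11.29 in HF and 10.98, 11.08 and 11.29 in CHO livers, and EtOH minus HF was not called (0.18 ± 0.06, adjusted p = 0.0678). C8a had 10.89, 11.07 and 11.44 in EtOH, 10.89, 10.95 and 11.11 in HF and 10.97, 11.11 and 11.24 in CHO livers, and Mbl2 had 10.82, 11.04 and 11.10, 10.43, 10.87 and 11.05, and 10.76, 10.98 and 11.28. For both, HF minus CHO was -0.16 and not called (adjusted p = 0.641 and 0.715). The summed level of the macrophage markers was higher in EtOH livers, with a median of 11.7 against 11.1 in HF and 11.1 in CHO livers, and 8 and 4 of its 11 genes were called higher against HF and CHO. No gene of either EtOH comparison was called within the 1, 6 or 24 h cohort alone.

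**Figure D5:**
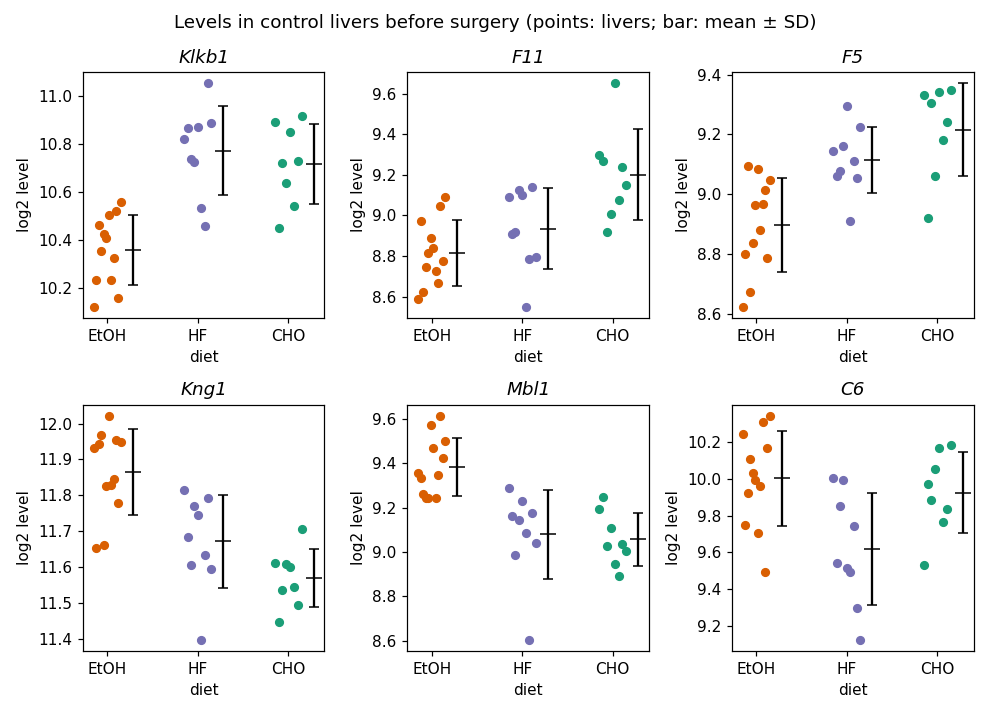
Log2 level in each control liver of the 6 genes called in a comparison of diets before surgery, by diet (12 EtOH, 9 HF and 8 CHO livers), with the mean ± SD beside the points. Klkb1, F11 and F5 (top row) lie lower in EtOH than in CHO livers, Kng1 and Mbl1 higher, and C6 lies lowest in HF livers.

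Other genes of the same systems were read from lists. Of 28 other genes of haemostasis 5 were higher and 1 lower at 1 h, 11 and 6 at 6 h and 10 and 4 at 24 h. Of all genes, 10.3%, 39.9% and 34.1% were called in either direction at these times. Thbd, the thrombin receptor that activates protein C, rose by 1.39 ± 0.12 at 1 h and 1.61 ± 0.13 at 6 h, and Plaur, the urokinase receptor, by 0.50 ± 0.07 and 0.99 ± 0.07. F3, tissue factor, and F2r, a thrombin receptor, rose at 1 h by 0.42 ± 0.10 and 0.35 ± 0.09. Fga, a chain of fibrinogen, rose by 0.59 ± 0.06 at 6 h and 0.66 ± 0.06 at 24 h, when Fgg, another chain, rose by 0.46 ± 0.05. Ggcx, the carboxylase that vitamin K-dependent factors need, rose at 24 h by 0.75 ± 0.06. The list also holds Tmprss6, a membrane protease of hepatocytes that is not a clotting factor. It fell by 0.95 ± 0.06 and 0.79 ± 0.06 at 6 and 24 h.

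Of 18 other complement genes 4 were higher and 1 lower at 1 h, 5 and 2 at 6 h and 4 and 4 at 24 h. The shares of all genes called in either direction were 10.3%, 39.9% and 34.1%. At 1 h the genes with the smallest p were C1qc, Fcna, Vsig4 and Cfp, which macrophages express (0.21 to 0.32). The 1 gene called lower at 1 h was C3ar1, a receptor of the list (-0.27 ± 0.09, adjusted p = 0.0485, limma). At 6 h Cpn1, a chain of the carboxypeptidase that inactivates anaphylatoxins, fell by 0.80 ± 0.07 while Cpn2, its other chain, rose by 0.39 ± 0.07, and C3ar1 and Fcnb rose by 0.65 ± 0.10 and 0.49 ± 0.09. At 24 h Colec11, a further collectin, fell by 0.77 ± 0.08, Cfp fell by 0.38 ± 0.07, and Vsig4 and Cpn2 rose by 0.61 ± 0.11 and 0.30 ± 0.07. Of the 18 genes C1qa, C1qb, C1qc and Vsig4 also stand in the macrophage list and Colec11 in the stellate list.

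Of 23 other plasma proteins of the liver 0 were called at 1 h, 5 were higher and 13 lower at 6 h, and 4 and 14 at 24 h. Here too 10.3%, 39.9% and 34.1% of all genes were called in either direction. Orm1, an acute-phase protein, rose by 2.37 ± 0.15 and 3.39 ± 0.15 at 6 and 24 h, and Hp, haptoglobin, by 0.39 ± 0.05 at 6 h. Igfals, which carries insulin-like growth factors, fell by 1.74 ± 0.08 and 1.26 ± 0.09, Afm, a relative of albumin, by 0.65 ± 0.05 and 1.14 ± 0.06, and Serpina6, which binds corticosteroids, by 2.98 ± 0.14 at 24 h. The median changes of the 23 genes were -0.18 and -0.29 at 6 and 24 h, beside -0.29 and -0.15 for the 34 clotting and complement genes. Of 15 regulators of hepatocyte genes 6 were higher and 2 lower at 1 h, 3 and 4 at 6 h and 3 and 8 at 24 h, beside the same shares of all genes. Cebpb, Cebpd and Socs3 rose at 1 h (0.80 ± 0.10, 0.42 ± 0.07 and 0.51 ± 0.11) and Foxa2 fell (-1.01 ± 0.12). Stat3, which carries the IL-6 signal of the acute phase, rose by 2.16 ± 0.13 at 6 h and 1.28 ± 0.13 at 24 h, and Socs3, its feedback inhibitor, by 3.13 ± 0.12 and 1.31 ± 0.13. Cebpa and Ppara fell by 1.54 ± 0.12 and 3.13 ± 0.16 at 6 h and by 1.14 ± 0.12 and 1.43 ± 0.17 at 24 h.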

How the data were processed

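The submitters hybridized liver RNA to 72 arrays and, per the submitters' processing notes, made log2 values with RMA in Affymetrix Expression Console. The batch-corrected log2 table, deposited by the authors, was used; its values differ from those of the deposited value table by 1 constant for each probe set on each scan day (largest residual 9.58e-05), and within-animal changes do not depend on that constant. The number of arrays limits the precision. Of 29214 probe sets, 15310 map to 1 gene, 323 to several and 13581 are not listed, and each of 14506 genes was read from its probe set of highest mean (527 had several). No filter on dim genes was used, and the tables hold no detection calls.

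Responses were fitted with limma 3.58.1 (R 4.3.3) on 54 arrays of 27 animals with the animal as fixed block (18 residual degrees of freedom), and control livers on 29 arrays with scan day as block (19). Each of the 8 scan days held 1 cohort. There were 29 comparisons, with Benjamini-Hochberg adjustment over all genes within each. The fits were tested on simulated data. A simulated log2 difference of 0.5 was called in 90% of genes for the response at 6 h. For EtOH minus CHO control livers it was called in 67.1%, so differences of that size or smaller can be missed. The simulated responses gave animals and arrays the same spread, which need not hold in the data. In the authors' table without outlier arrays (63 arrays), the control columns of CHO 1 h replicate 3 and CHO 6 h replicate 1 held the remnant values of those animals (correlation across probe sets 0.985 and 0.992 with the remnant arrays, 0.276 and -0.365 with the control arrays), so which array is the control was not settled, and these 2 control livers were left out. EtOH 24 h replicate 4 carries a high fat tag on its PHx array, which is marked as an outlier and was not used in responses. The 12 h time point of the design has no array among the 72, so it was not analysed here. The pairing of remnant and control rests on the animal labels; after removal of group means the 2 arrays of an animal correlated at -0.70 to 0.44 (median 0.20).

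The genes, lists and motifs were chosen with earlier results of these data known. Full values are given for the 3 largest rises and 3 largest falls called in each response. They are also given for each gene called in a difference between diets in response. The same holds for the 6 genes with the smallest p in each comparison of control livers. Other lists name the 4 called genes with the smallest p per time, and for complement at 1 h also C3ar1. Neighbouring genes come from RefSeq (GRCr8). Alternatives changed the table, the arrays kept, normalization, probe set choice, array weights, blocks, scan days and single animals. Figures used matplotlib 3.10.9 (Python 3.11.15).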

Additional observations from a re-analysis of the deposited data

Results flagged for a closer look

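In 136 groups of 4 to 10 samples (changes of 4 EtOH animals, and control levels of 9 HF or 8 CHO livers), 8 values lay further from their group than Dixon's test allows, where chance alone gives about 1 in 20. At 1 h the F12 change of EtOH replicate 2 was 0.0536 against -0.09 to -0.08 in the other EtOH animals. At 6 h the changes of EtOH replicate 2 were -0.33 for Serpinf2 (others -0.30 to -0.29) and -1.26 for Mbl1 (others -0.87 to -0.82). HF replicate 1 of the 24 h cohort had the lowest control levels of Proc (10.7, others 11.0 to 11.2), Mbl1 (8.60, others 8.99 to 9.29) and Mbl2 (10.4, others 10.8 to 11.0). HF replicate 4 of that cohort had a control level of C1s of 9.84 (others 10.2 to 10.5). CHO replicate 3 of the 6 h cohort had a control level of C1r of 11.6 (others 11.3 to 11.4).

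The response at 24 h differed between diets for F11 (log2 0.54 for EtOH minus the control diets and 0.66 for EtOH minus CHO) and for C6 (-0.66 for EtOH minus the control diets and -0.80 for EtOH minus HF). The response differed between 1 and 6 h for 22 genes and between 6 and 24 h for 18 genes.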

How the results depend on the processing

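Over 103 called results of single genes, each with its alternatives, 3440 of 3671 values kept their direction and their side of the threshold, 231 kept the direction and lost the call, and 0 reversed. Most alternatives left out a single animal. Leaving out an animal of another time changes a response only through the shared estimate of the spread. Such alternatives could not reverse a response, so these totals overstate how far the results were tested. The 2 calls at 1 h became 1 with no replicate block (scan day as block and animals unpaired) and 0 within scan day 7 or scan day 8. The 27 calls at 6 h became 17 within scan day 1, and the 23 calls at 24 h became 13 within scan day 4 and 11 within scan day 6. For EtOH minus the control diets, the 0 calls at 6 h became 1 with array quality weights, and the 2 calls at 24 h became 1 with all 72 arrays or with array quality weights and 0 with no replicate block. For control livers, the 5 calls of EtOH minus CHO became 3 with the misplaced columns kept as named, and the 4 of EtOH minus HF became 7 when genes above the median level alone were tested; both became 0 within each of the 1, 6 and 24 h cohorts, which hold fewer livers. The cause of these changes was not tested.

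Leaving out 1 animal at a time gave 0 to 3 calls at 1 h, 24 to 27 at 6 h, 21 to 23 at 24 h, 19 to 22 for 6 h minus 1 h and 17 to 19 for 24 h minus 6 h. For EtOH minus the control diets it gave 0 at 1 h, 0 to 1 at 6 h and 0 to 4 at 24 h (4 without HF replicate 2, 0 without EtOH replicate 1 or 3 or CHO replicate 2). For control livers it gave 4 to 5 for EtOH minus CHO, 2 to 5 for EtOH minus HF (2 without EtOH replicate 4 of the 1 h cohort or HF replicate 4 of the 24 h cohort) and 0 for HF minus CHO.

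Within a cohort, control livers of different diets with the same replicate number had deviations that correlated at -0.31 to 0.24, over 0.1 in 1 of 25 pairs. Pairs with different numbers had -0.26 to 0.18, over 0.1 in 4 of 67. The animal labels run in sequence across the diets within a replicate number. Whether these animals were matched by design was not settled, and weak correlations cannot show that they were not. With the replicate number as a replicate block (9 residual degrees of freedom), EtOH minus the control diets was called for 0 genes at each time, with F11 at 0.39 (adjusted p = 0.307) and C6 at -0.55 (adjusted p = 0.191) at 24 h.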
